A study of Mus musculus with 6 samples.

Results

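A set of 10 genes of the DNA damage checkpoint were followed in hematopoietic stem cells (HSCs) of the mouse fetal liver with and without Dpy30. They are Atm, Atr, Atrip, Chek1, Chek2, Trp53bp1, Mdc1, Topbp1, Rad17 and Wee1, chosen by their known role as kinases and mediators of the checkpoint and taken by symbol from the count lists, where they make up 10 of 38926 genes. The choice was made with earlier results of these data known. All 10 passed the filter on low counts. RNA was sequenced from 3 control and 3 Dpy30 knockout samples of sorted HSCs at E14.5, with 1 sample of each genotype from each of 3 litters. Control embryos were Vav-Cre; Dpy30F/+, carrying a floxed and an intact allele, and knockout embryos were Vav-Cre; Dpy30F/-, carrying a floxed and a null allele. Every embryo carried Vav-Cre, which expresses Cre recombinase from regulatory elements of Vav in the blood lineage, so the comparison is with cells that can lose 1 of their alleles and not with fully intact cells. The labels do not say whether a sample came from 1 embryo or from several. DPY30 belongs to the SET1/MLL enzyme complexes that deposit H3K4 methylation, and the series compares the genotypes to see how its loss changes gene expression.

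The checkpoint is a kinase relay. ATM is activated at DNA double-strand breaks and ATR, with its partner ATRIP, at single-stranded DNA of stalled replication forks; they phosphorylate the effector kinases CHEK2 and CHEK1, respectively. RAD17 loads the 9-1-1 clamp and TOPBP1 activates ATR, while MDC1 and 53BP1 (the product of Trp53bp1) gather repair factors on chromatin around breaks. WEE1 and CHEK1 both act to keep cyclin-dependent kinases (CDKs) inactive until DNA is replicated or repaired. Dividing stem cells of the fetal liver use the ATR arm in each S phase, and most of this signalling is by phosphorylation, which RNA levels do not measure.

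Dpy30 itself was at 24.6, 24.2 and 31.6 CPM (counts per 1000000 of library size, scaled by trimmed mean of M values) in controls 1 to 3 and at 7.93, 5.95 and 13.7 CPM in knockouts 1 to 3. The libraries held 31897737 to 43394700 counts in genes, of which mitochondrially encoded genes took 49.2% to 67.7%. All 8 listed HSC markers had counts in at least 5 of 6 samples, and their summed level was 504 to 568 CPM in controls. Knockout 3 stood apart: its HSC markers summed to 238 CPM, against 569.9 and 748 CPM in knockouts 1 and 2. Hlf, an HSC transcription factor gene, was at 27.3 CPM there against 146 to 229.9 CPM in the other 5 samples. Gata2 went the other way, at 45.3 CPM in knockout 3 against 30.1 to 32.0 CPM in controls. Procr was at 6.455 CPM in knockout 3, near control 2 at 6.499 CPM. Over all samples, 5 of the 8 HSC markers had a fold change above 0 and 3 below. Sums of the 8 macrophage markers were 98.5 to 190.0 CPM for controls, against 433, 293 and 1087 CPM for knockouts 1 to 3; those of the 7 granulocyte markers were 58.3 to 124 CPM against 69.1, 148 and 389.7 CPM, and those of the 6 erythroid markers 398 to 918 CPM against 581, 633 and 1853 CPM. None of these markers was at 0 throughout a genotype, 8 of 8, 6 of 6 and 4 of 6 tested ones had a fold change above 0, and 0 passed the test. Every knockout was also above every control for the sums of the 4 megakaryocyte markers (36.4 to 44.7 against 14.8 to 31.9 CPM) and of the 5 mast cell and lymphoid markers (6.42 to 18.9 against 0.0691 to 4.79 CPM), of which Cd3e was at 0 in all samples. Knockout 2 stood apart in the 3 endothelial markers, at 79.8 CPM against 663 to 1134 CPM in the other 5 samples, and the 4 hepatocyte markers summed to 3.66 to 19.8 CPM in controls and 1.56 to 4.11 CPM in knockouts, with Apoa1 at 0 in all knockouts. The part of other cell types in the results below was not tested. In such bulk samples, fewer cells of a type and less RNA per cell cannot be told apart. Fold changes of the 10 genes are therefore also given without knockout 3 where they move.

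None of the 10 checkpoint genes passed the test for a difference between genotypes. The deleted gene Dpy30 did not pass it either (log2 fold change -1.55, SE 0.46, adjusted p = 0.672 in edgeR and 0.131 in DESeq2). A gene that did not pass can therefore still differ. In edgeR's quasi-likelihood test across 13646 genes, 0 of 10 had an adjusted p under 0.05, against a background of 0% of all genes, and 0 had an unadjusted p under 0.05, against 6.51%. DESeq2 called 0 of the 10 at an adjusted p under 0.05, against 1.03% of genes, and limma-voom called 0 against 0%. At an unadjusted p under 0.05, DESeq2 listed 0 of the 10 (9.41% of genes) and limma-voom 1, which was Chek1 (7.39%). With litter as a replicate block, edgeR called 0 at an adjusted p under 0.05 (0% of genes) and 0 at an unadjusted p under 0.05 (4.54%), and DESeq2 called 0 (2.16%) and 1, again Chek1 (12.1%). Fitted log2 fold changes of knockout over control were below 0 for 5 genes (49.2% of all genes tested) and above 0 for the other 5, and their median was 0.00 (all genes tested: 0.01). Chek1 had the largest of them, -1.09, and the other 9 lay between -0.45 and 0.39. An exact permutation test of 3 against 3 samples cannot give a two-sided p below 0.1.

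**Figure D1:**
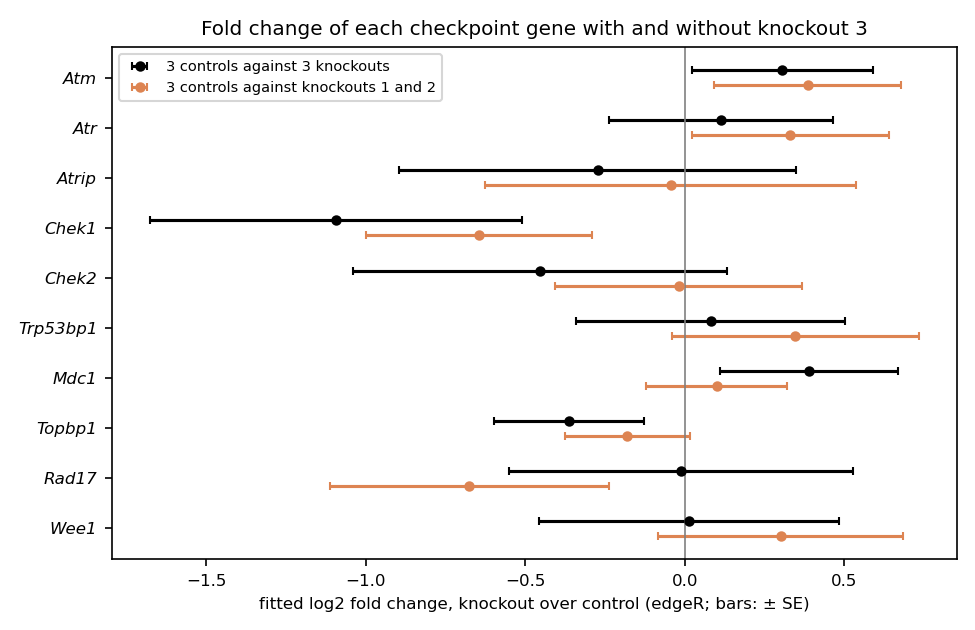
Fitted log2 fold change of each checkpoint gene on the x axis, from edgeR, for all 6 samples (black) and without knockout 3 (orange); bars are ± SE. Chek1 lies farthest from 0 at -1.09 with all samples, and Rad17 moves from -0.01 to -0.68 when knockout 3 is left out.

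Chek1 (ENSMUSG00000032113.16; chromosome 9, 36708482 to 36727065, minus strand, GRCm38) encodes the effector kinase of the ATR arm. It had 40.6, 42.1 and 41.8 CPM in controls 1 to 3 and 18.1, 34.6 and 5.71 CPM in knockouts 1 to 3. Every knockout was below every control, and Chek1 was the 1 gene of the 10 whose genotypes did not overlap. Across all genes tested, 14.1% had genotypes that did not overlap, 7.74% with the knockouts lower, so 1 of 10 is near the background. Control samples averaged 41.5 ± 0.787 CPM and knockout samples 19.5 ± 14.47 CPM (SD, n = 3 per genotype), with an exact permutation p of 0.1, the smallest possible. On the log2 scale the fitted difference was -1.09 (SE 0.58, edgeR adjusted p = 0.797). Without knockout 3 it was -0.65 (SE 0.36; edgeR adjusted p = 0.722), and without knockout 2 it was -1.80 (adjusted p = 0.455). The spread among knockouts was wider than counting error, as the 200 counts of knockout 3 have an exact 95% Poisson interval of 173 to 229.7.

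Chek2 (ENSMUSG00000029521.7; chromosome 5, 110839979 to 110874145, plus strand), the effector kinase gene of the ATM arm, had 22.3, 21.2 and 24.6 CPM in controls 1 to 3 and 28.4, 15.96 and 5.34 CPM in knockouts 1 to 3. The controls were close together, whereas knockout 1 was above all of them and knockouts 2 and 3 below. Its fitted log2 difference of -0.45 (SE 0.59, edgeR adjusted p = 0.932) became -0.02 without knockout 3 and -1.09 without knockout 1 (adjusted p = 0.494). Knockout 3 thus had the lowest level of both effector kinases, with 187 counts for Chek2.

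The promoter windows of these effector kinases are shown because the SET1/MLL complexes act on chromatin around start sites. The windows also differ in which of the searched letters they hold. Sequences are those of RefSeq on GRCm38.p6, which held a window for 9 of the 10 genes (Wee1 was the exception). The letters searched on both strands were the E2F motif (TTTGGCGC, TTTCCCGC, TTTGCCGC or TTTCGCGC), the CCAAT box (CCAAT) and the cell cycle homology region (TTTGAA). GGCGGGAA was added after the Chek1 window had been read; its reverse complement shares 7 letters with TTTCCCGC, so 1 stretch can count for both. Each run lies within the 250 bases before the RefSeq start, less any exon of a protein-coding transcript in GENCODE M21, 5′ to 3′ on the strand of the gene, with matches in capitals. The Chek1 run is also covered by an exon of a longer noncoding Chek1 transcript in GENCODE M21.
Chek1, chr9:36726659-36726908, minus strand: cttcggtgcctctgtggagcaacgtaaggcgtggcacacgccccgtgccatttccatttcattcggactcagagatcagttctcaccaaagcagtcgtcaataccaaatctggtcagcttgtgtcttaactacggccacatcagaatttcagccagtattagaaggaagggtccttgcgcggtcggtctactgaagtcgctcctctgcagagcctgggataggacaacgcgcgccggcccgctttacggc
Chek2, chr5:110839778-110839978, plus strand: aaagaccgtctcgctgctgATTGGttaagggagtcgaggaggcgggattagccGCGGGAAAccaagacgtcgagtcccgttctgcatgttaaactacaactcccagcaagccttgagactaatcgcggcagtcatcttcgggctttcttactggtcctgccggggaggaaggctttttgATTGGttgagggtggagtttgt

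The printed Chek2 run lies between the starts of Chek2 and Hscb, a gene on the other strand, 202 bases apart in GENCODE M21. Whether its matches belong to 1 gene or the other was not tested. The Chek2 run held 1 E2F match, beginning 152 bases before the start, and 2 CCAAT boxes, at 186 and 26 bases before it. The Chek1 run held none of these letters. Its only match was to the added letters, 42 bases after the start, at the end of these 30 transcribed bases (chr9:36726609-36726638, minus strand):
Chek1: cagcatgacgcaagcaggttttGGCGGGAA
In the printed Chek1 stretch, TTTGGCGG differs from the searched TTTGGCGC only in its last letter, and it was not counted as an E2F match. In windows of 300 bases that include the first 50 transcribed, the E2F spellings searched were found for 3 of 9 checkpoint genes. These were Chek2, Mdc1 and Topbp1. The E2F spellings were found for 4.77% of the 9191 tested genes with a window. CCAAT was found for 4 of 9 (Atm, Atrip, Chek2 and Mdc1; 42.9% of tested genes), TTTGAA for 0 of 9 (14.3%) and GGCGGGAA for 2 of 9 (Chek1 and Mdc1; 4.86%). Over all 32851 windows of that length the shares were 2.26%, 37.4%, 17.9% and 2.19%. Because GGCGGGAA was added after the Chek1 window had been read, its count in the checkpoint genes cannot be set against these shares. The Mdc1 match to GGCGGGAA lies in the same stretch as the E2F match of Mdc1. The 3 genes with an E2F match, Chek2, Topbp1 and Mdc1, had log2 fold changes of -0.45, -0.36 and 0.39, on both sides of 0. Chek1, with a match to the added letters only, was at -1.09. The spellings searched cannot show whether Chek1 has an E2F site.

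The fitted fold changes of both apical kinases were above 0, and neither passed the test. Atm (ENSMUSG00000034218.16; chromosome 9, 53439149 to 53536740, minus strand) had 45.8, 45.4 and 63.1 CPM in controls 1 to 3 and 53.1, 80.2 and 57.6 CPM in knockouts 1 to 3. The knockout of litter 2 was above all other samples, and the remaining knockouts lay within the range of the controls. The fitted log2 difference of Atm was 0.31 (SE 0.28, edgeR adjusted p = 0.901), 0.38 without knockout 3 and 0.10 without knockout 2. Atr (ENSMUSG00000032409.15; chromosome 9, 95857597 to 95951781, plus strand) had 25.6, 30.3 and 39.1 CPM in controls 1 to 3 and 37.7, 41.3 and 23.9 CPM in knockouts 1 to 3. Its genotypes overlapped almost fully, with knockout 3 the lowest sample (log2 fold change 0.11, SE 0.35, edgeR adjusted p = 0.977; 0.33 without knockout 3). Atrip (ENSMUSG00000025646.9; chromosome 9, 109057933 to 109074124, minus strand), whose product carries ATR to replication protein A on single-stranded DNA, was the least abundant of the 10, with 8.77, 12.7 and 6.71 CPM in controls and 6.47, 11.7 and 5.23 CPM in knockouts. Within each litter the knockout was below its control, by 0.44, 0.13 and 0.36 on the log2 CPM scale. Even so, the litters differed from each other by more than the genotypes did (log2 fold change -0.27, SE 0.62, edgeR adjusted p = 0.967). Leaving out knockout 3 gave Atrip a log2 fold change of -0.04.

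Atm lies head to head with Npat, a histone gene regulator, with 307 bases between their starts in GENCODE M21. The bases before the start of Atm that lie outside exons, which hold 1 CCAAT box on the other strand, are shown as part of the stretch between the pair.
Atm, chr9:53536741-53536921, minus strand: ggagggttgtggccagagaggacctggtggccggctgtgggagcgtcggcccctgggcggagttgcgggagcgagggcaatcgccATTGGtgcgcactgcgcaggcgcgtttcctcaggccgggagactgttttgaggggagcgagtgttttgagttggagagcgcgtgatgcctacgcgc
Npat had 81.1, 53.8 and 50.1 CPM in controls 1 to 3 and 74.7, 49.4 and 33.7 CPM in knockouts 1 to 3. The ranges of the genotypes overlapped for Npat as for Atm, and the order of the samples was not that of Atm (log2 fold change -0.23, SE 0.36, edgeR adjusted p = 0.948). Without knockout 3 the log2 fold change of Npat was 0.02.

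Both mediators that gather at breaks had fitted fold changes above 0, and neither passed the test. Mdc1 (ENSMUSG00000061607.15; chromosome 17, 35841515 to 35859670, plus strand), whose product binds phosphorylated histone H2AX, had 130.4, 135 and 126 CPM in controls 1 to 3 and 162, 116 and 236 CPM in knockouts 1 to 3. Knockouts 1 and 3 lay above all controls and knockout 2 below them (log2 fold change 0.39, SE 0.28, edgeR adjusted p = 0.866; 0.10 without knockout 3 and 0.61 without knockout 2). Trp53bp1 (ENSMUSG00000043909.16; chromosome 2, 121193281 to 121271407, minus strand) varied within both genotypes, with 22.7, 46.5 and 38.97 CPM in controls 1 to 3 and 55.03, 35.7 and 23.6 CPM in knockouts 1 to 3. The fitted log2 difference, 0.08 (SE 0.42, edgeR adjusted p = 0.990), was small beside that spread. Leaving out knockout 3 gave Trp53bp1 a log2 fold change of 0.35. The lowest control and the lowest knockout were at almost the same level.

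On the ATR side, Topbp1 (ENSMUSG00000032555.10; chromosome 9, 103305215 to 103350428, plus strand), the activator of ATR, had 189, 167 and 199 CPM in controls 1 to 3 and 172, 151 and 108 CPM in knockouts 1 to 3. The knockout was below its control in each litter, by 0.14, 0.14 and 0.88 on the log2 CPM scale, and knockout 1 was within the range of the controls (log2 fold change -0.36, SE 0.24, edgeR adjusted p = 0.848; -0.18 without knockout 3). Rad17 (ENSMUSG00000021635.14; chromosome 13, 100617164 to 100651051, minus strand), the clamp loader subunit, had 22.96, 16.3 and 14.3 CPM in controls and 10.3, 11.8 and 30.9 CPM in knockouts. Knockouts 1 and 2 were below all controls and knockout 3 above them. Fitted with all samples, Rad17 had a log2 difference of -0.01 (SE 0.54, edgeR adjusted p = 0.998) and one of -0.68 (adjusted p = 0.765) without knockout 3.

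Wee1 (ENSMUSG00000031016.9; chromosome 7, 110122046 to 110143286, plus strand), whose product phosphorylates CDK1 to hold cells before mitosis, had 15.7, 15.7 and 15.6 CPM in controls 1 to 3 and 16.1, 22.2 and 9.11 CPM in knockouts 1 to 3. The controls were nearly equal, knockout 2 was above them and knockout 3 below (log2 fold change 0.01, SE 0.47, edgeR adjusted p = 0.998; 0.30 without knockout 3). Wee1 and Chek1 had the same order of knockouts, with knockout 3 the lowest of the 6 samples and knockout 2 the highest knockout. They differed in knockouts 1 and 2, where Wee1 was above all controls and Chek1 below them.

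**Figure D2:**
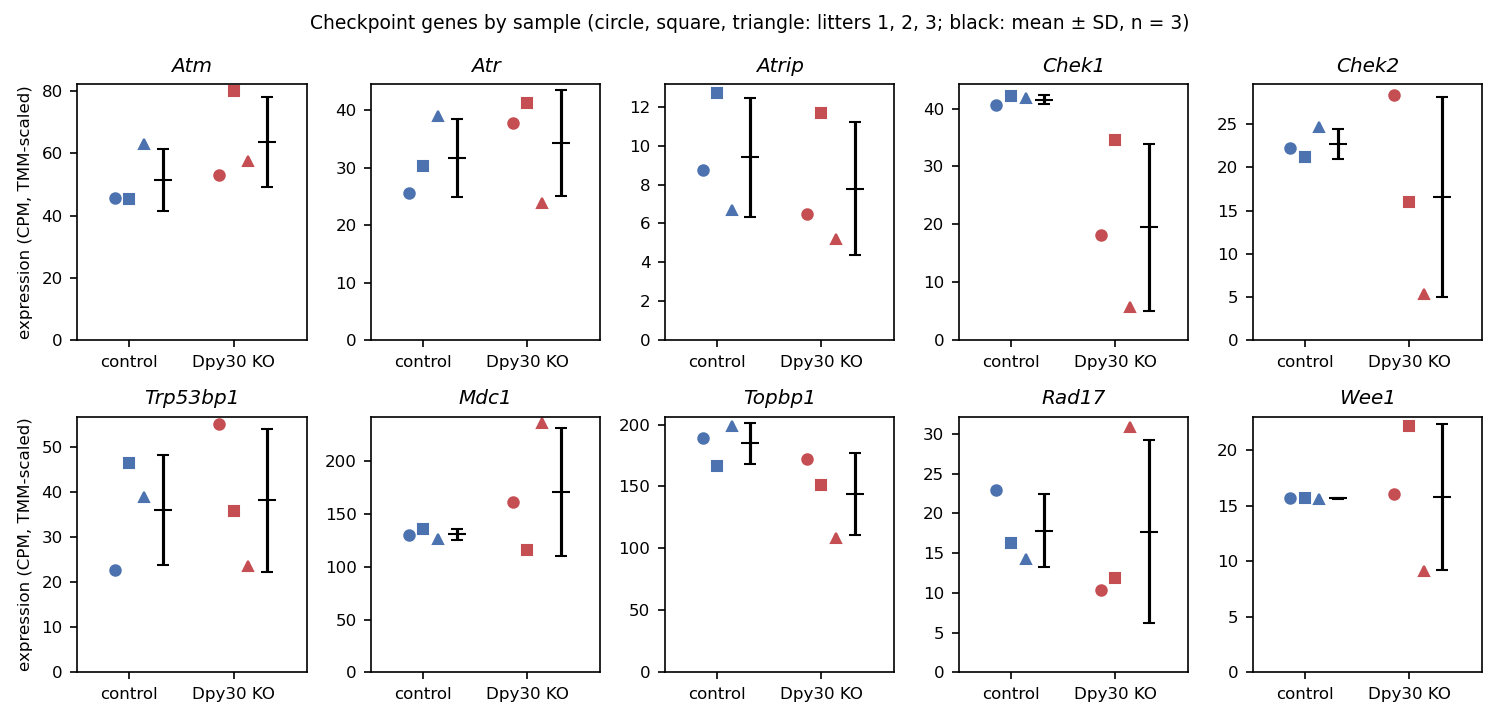
Expression of each checkpoint gene on the y axis, in CPM from 0, by genotype on the x axis; points are samples shaped by litter, and black marks are the mean ± SD of 3 samples. Chek1 is the panel where no knockout (5.71 to 34.6 CPM) reaches the controls (40.6 to 42.1 CPM), and in 8 of 10 panels knockout 3 is the lowest or the highest sample.

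The comparison within a sample does not depend on how libraries are scaled. Controls 1 to 3 had a Chek1 to Atr ratio of 1.59, 1.39 and 1.07, in CPM of 1 gene over CPM of the other, and knockouts 1 to 3 one of 0.481, 0.837 and 0.2395. Every knockout was below every control, a difference of -1.54 on the log2 scale. The ratio of Wee1 to Chek1 was 0.387, 0.372 and 0.372 in controls and 0.8875, 0.642 and 1.595 in knockouts, higher in every knockout by a mean of 1.36 on the log2 scale. In each of these pairs the exact permutation p was 0.1 (two-sided, the smallest possible) and 0.3 after Benjamini-Hochberg adjustment over the 6 pairs compared. Both pairs contain Chek1, whose own level already did not overlap between genotypes, so they are not separate results. The share of other gene pairs with ratios that do not overlap was not computed. The ratio of Chek1 to Chek2 overlapped between genotypes, with 1.699 to 1.985 in controls and 0.638, 2.166 and 1.07 in knockouts (exact permutation p = 0.4). Atm over Atr, Atr over Atrip and Mdc1 over Trp53bp1 also overlapped, with exact permutation p of 0.5, 0.4 and 0.6.

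The knockouts were less alike than the controls for each of the 10 genes. The SD of log2 CPM was larger in knockouts than in controls for 10 of 10, where 75.2% of all genes tested had a larger SD in knockouts. Its median over the 10 genes was 0.20 in controls and 0.60 in knockouts, and over the 7151 tested genes in the same range of mean level (8.59 to 165 CPM) it was 0.35 and 0.62. The knockouts therefore spread about as much as genes of like level, while the controls spread less. The widest ranges were those of the effector kinases: the highest knockout had 6.05 times the Chek1 level and 5.32 times the Chek2 level of the lowest, against 1.04 and 1.16 times among controls. Over knockouts 1 and 2 alone, the SD was larger than that of the controls for 7 of 10 genes. That sets an SD of 2 samples beside an SD of 3 samples. The share over all genes was not computed for it, so 7 of 10 cannot be placed against a background.

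By litter, 4, 7 and 8 of the 10 genes were lower in the knockout than in the control of litters 1, 2 and 3, where 48.9%, 52.8% and 54.8% of all genes were. The median difference in log2 CPM was 0.12, -0.18 and -0.72 in litters 1 to 3. Knockout 3 was the lowest of the 6 samples for 6 of 10 (33.1% of all genes; 26.6% of genes in the same range of level) and the highest for Mdc1 and Rad17, so that it was at either end for 8 of 10 (58.8% of all genes). Chek1, Atrip and Topbp1 were lower in all 3 litters (15.9% of all genes), and 0 of 10 were higher in all 3 (12.3%). Knockout 3 is also the library with the lowest HSC marker sum and the highest macrophage marker sum, and what that adds to the differences in litter 3 was not tested.

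**Figure D3:**
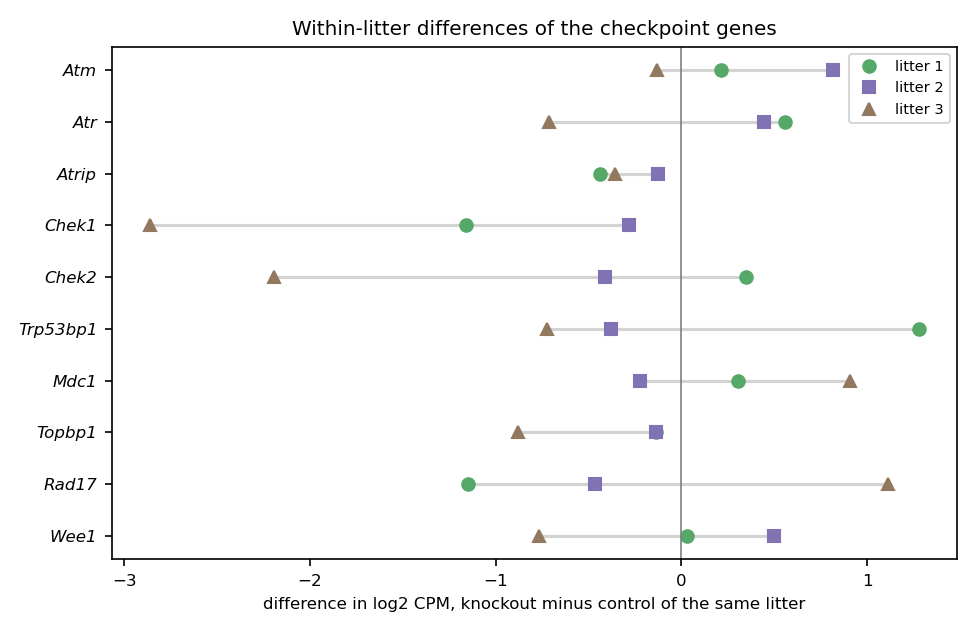
Difference in log2 CPM between the knockout and the control of the same litter on the x axis, for each checkpoint gene; shapes and colours are the 3 litters. Litter 3 lies below 0 for 8 of 10 genes, down to -2.86 for Chek1 and -2.19 for Chek2, and above 0 for Mdc1 and Rad17.

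Levels of different genes were compared per kilobase of annotated exons. In controls, Mdc1 (17.6 ± 0.649 CPM per kilobase) and Topbp1 (16.5 ± 1.47) were the most abundant, followed by Chek1 (8.95 ± 0.170), Chek2 (7.56 ± 0.580), Atm (4.98 ± 0.977), Wee1 (4.58 ± 0.0232), Trp53bp1 (2.54 ± 0.859), Rad17 (2.21 ± 0.563), Atr (1.34 ± 0.289) and Atrip (1.32 ± 0.428; SD, n = 3 each). Neighbours in this order whose ranges overlapped were Mdc1 and Topbp1, Atm and Wee1, Trp53bp1 and Rad17, and Atr and Atrip. In the knockouts Chek1 stood sixth at 4.199 ± 3.12 CPM per kilobase, and no pair of neighbours below Atm had separate ranges. The length chosen matters for genes with many annotated isoforms: per kilobase of the longest protein-coding transcript, Topbp1 (35.4 ± 3.17) stood above Mdc1 (17.8 ± 0.656) in each control, Atr was at 3.91 ± 0.843 and Rad17, at 6.29 ± 1.602, stood above Atm. Under both lengths, in controls, the mediators Mdc1 and Topbp1 came first, the effector kinases Chek1 and Chek2 next, and Atrip had the lowest mean, though not the lowest level in every control.

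**Figure D4:**
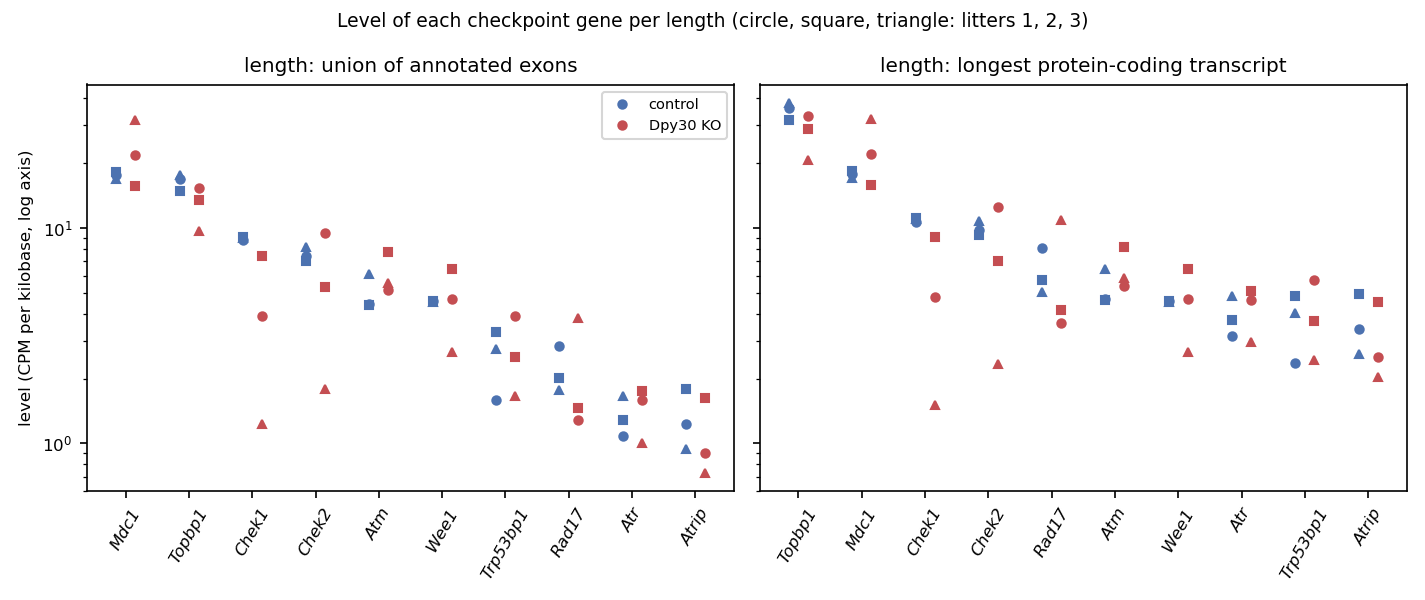
Level of each checkpoint gene on the y axis (CPM per kilobase, log scale), ordered by the mean of the controls, with the length taken as the union of annotated exons (left) or the longest protein-coding transcript (right). Points are the 3 controls and 3 knockouts; Chek1 and Chek2 of knockout 3 lie far below the other samples, at 1.23 and 1.78 CPM per kilobase on the left.

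Some exons of these genes are shared with other genes, which bears on their counts. Trex1 shares 1147 of the 7152 exon bases of Atrip on the same strand and was listed at 0 counts in all 6 samples. Tubgcp4 overlaps Trp53bp1 tail to tail over 2130 of 14164 exon bases and had 9.30 to 19.1 CPM in controls and 14.54, 30.4 and 8.83 CPM in knockouts 1 to 3. The overlaps of Atr are with Gm24004, 1700065D16Rik and Gm16794, which together cover 5.78% of its exon bases and had at most 4.66 CPM in any sample. Whether strand was used in the counting is not given in the sources used here, so reads of such antisense pairs cannot be told apart. Other genes start within 1000 bases of a checkpoint gene: Hscb, a mitochondrial iron-sulfur cluster chaperone gene 202 bases from the start of Chek2, was at 16.3, 12.3 and 13.8 CPM in controls and 18.7, 27.1 and 35.2 CPM in knockouts. Hscb was thus higher in every knockout than in every control, as 6.39% of all genes tested were (log2 fold change 0.94, SE 0.40, edgeR adjusted p = 0.766). Chek2 on the other strand was not. Ak6 starts 72 bases from the start of Rad17, on the other strand, and overlaps Rad17 over 73 exon bases. The count lists held no gene under the symbol Ak6. Taf9, 528 bases from the start of Rad17, had 23.5 to 30.9 CPM in controls and 15.8, 16.2 and 25.1 CPM in knockouts 1 to 3, and 1300017J02Rik, 133 bases from that of Topbp1, had 3.73 to 4.72 CPM in controls and 0.0503, 0.909 and 11.4 CPM in knockouts 1 to 3.

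Other genes of the pathway were read from lists. On the ATR side (the 9-1-1 clamp, adaptors and single-strand sensors), 0 of 11 tested genes passed and 9 had a fold change below 0 (49.2% of all genes tested). The median log2 fold change was -0.26, which was 0.11 under scaling by library size only. Rpa2, a subunit of replication protein A, was at 37.5, 43.8 and 41.5 CPM in controls and 26.5, 26.8 and 17.2 CPM in knockouts (log2 fold change -0.80, SE 0.32, edgeR adjusted p = 0.753). The log2 fold changes of Tipin and Clspn, whose products hold CHEK1 signalling to the replication fork, were -0.68 and -0.36 (-0.27 and -0.16 without knockout 3). They were at 42.9 ± 5.63 and 65.9 ± 3.29 CPM in controls and 26.8 ± 14.7 and 51.3 ± 12.6 CPM in knockouts (mean ± SD of 3 samples). For all 3 of these genes every knockout was below every control (3 of 11, where 7.74% of all genes were), and without knockout 3 the number of the 11 below 0 went from 9 to 6. Rhno1, a clamp-binding adaptor, was in the other direction, at 3.89 ± 2.78 and 8.17 ± 5.31 CPM (log2 fold change 1.07, edgeR adjusted p = 0.880; 0.44 without knockout 3). Of this list 1 gene had an unadjusted p under 0.05 in edgeR, lower in knockout (2.24% of all genes), which was Rpa2. Rad9a, listed at 0 counts in all samples, and Hus1b did not pass the filter on low counts.

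On the ATM side (break sensors and chromatin mediators), 0 of 16 passed, with 9 above 0, 7 below and a median of 0.08 (-0.15 without knockout 2). Brca1, the ubiquitin ligase gene of homologous recombination, was at 48.7, 53.04 and 63.9 CPM in controls and 79.9, 61.95 and 82.4 CPM in knockouts (log2 fold change 0.44, SE 0.25, edgeR adjusted p = 0.817). Among partners of BRCA1 in the BRCA1-A complex, Babam1 was at 11.4 ± 4.02 CPM in controls and 33.7 ± 22.2 in knockouts, Bre at 9.72 ± 4.17 and 18.5 ± 7.50, and Fam175a at 11.7 ± 4.40 and 6.07 ± 1.53 (mean ± SD of 3 samples; edgeR adjusted p = 0.758, 0.824 and 0.847), so members of 1 complex lay on both sides. The log2 fold change of Bre was 0.93, and 0.60 without knockout 3. The kinase relatives of ATM and ATR and their assembly factors had a median of 0.06, with 7 of 11 above 0 and 0 passing. Of that list, Ruvbl2 was at 126 ± 43.9 and 147 ± 11.8 CPM, Mtor at 38.03 ± 5.72 and 49.9 ± 14.4, Ruvbl1 at 25.5 ± 6.80 and 20.6 ± 3.68, and Tti1, which stabilises these kinases, at 24.7 ± 11.7 and 57.97 ± 56.8 CPM, of which knockout 3 had 123 CPM (log2 fold change 1.23, and 0.04 without knockout 3).

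Lists of genes downstream of the checkpoint lay on both sides of 0. Of 11 genes of CDK control, 10 had a fold change below 0 (49.2% of all genes tested), with a median of -0.44 and 0 passing. Cdc7, the kinase that fires replication origins, was at 33.7, 26.9 and 29.5 CPM in controls and 10.97, 2.04 and 15.3 CPM in knockouts. Every knockout of Cdc7 was below every control (log2 fold change -1.67, SE 0.68, edgeR adjusted p = 0.753; -2.19 without knockout 3), and so was every knockout of Dbf4, its activating subunit (45.4 ± 6.39 and 32.6 ± 6.16 CPM, mean ± SD of 3 samples). Ccna2, at 157 ± 29.99 and 116 ± 22.9 CPM, and Plk1, at 38.1 ± 12.8 and 21.8 ± 11.5 CPM (log2 fold change -0.81, and -0.46 without knockout 3), overlapped between genotypes. Cdc7 and Dbf4 were the 2 of 11 whose genotypes did not overlap, where 7.74% of all genes had knockouts lower without overlap. The proliferation list had 13 of 15 below 0, a median of -0.37 and 0 passing; its genes Mcm6, Rrm1 and Rrm2 did not overlap between genotypes, 3 of 15 against the same 7.74% (197 ± 6.87, 275 ± 20.3 and 119 ± 12.4 CPM in controls, and 129 ± 16.8, 166 ± 46.9 and 84.5 ± 12.6 in knockouts), and Tyms did (70.3 ± 24.8 and 44.6 ± 5.94). Most genes of the proliferation list thus had fold changes below 0, as Chek1 did, where 49.2% of all genes tested were below 0. Some of them were near 0, with log2 fold changes of -0.13 for Mki67, -0.17 for Top2a and -0.08 for Aurkb. The 2 genes above 0 were Mcm7 at 0.02 and Mcm2 at 0.28. The part of proliferation in the Chek1 values was not tested.

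Like the other lists, the p53 outputs were chosen with earlier results of these data known. Shares over all genes are therefore a description here and not a test. The p53 outputs were the one list well above 0, with 15 of 16 above 0 and a median of 1.55 (0.83 without knockout 3). None passed in edgeR, where 8 had an unadjusted p under 0.05 (4.26% of all genes, higher in knockout), and DESeq2 called 3 of the 16 (1.03% of all genes), which were Cdkn1a, Ccng1 and Sesn2. Cdkn1a passed in edgeR under other filters, with an adjusted p of 0.0467 without a filter on low counts and 0.0434 with at least 10 counts in every sample. Cdkn1a, the p21 inhibitor of CDKs, was at 1.93, 2.995 and 1.45 CPM in controls and 33.5, 92.5 and 164 CPM in knockouts (log2 fold change 5.51, SE 0.67, edgeR adjusted p = 0.452; DESeq2 adjusted p = 2.28e-18). Ccng1 was at 80.4 ± 8.63 and 252 ± 103 CPM, Sesn2 at 3.78 ± 3.00 and 32.3 ± 25.3 CPM and Bbc3, which encodes the apoptosis inducer PUMA, at 0.0967 ± 0.0731 and 2.08 ± 0.984 CPM (mean ± SD of 3 samples). The order of the knockouts for Cdkn1a was 1, 2, 3 from lowest to highest, which was not the order for Chek1 (3, 1, 2), Chek2 (3, 2, 1) or Atm (1, 3, 2). These orders rest on 3 knockouts. Atm and Chek2, whose products phosphorylate p53, had log2 fold changes of 0.31 (SE 0.28) and -0.45 (SE 0.59). RNA levels do not measure phosphorylation, and the part of these kinases in the p53 outputs was not tested.

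**Figure D5:**
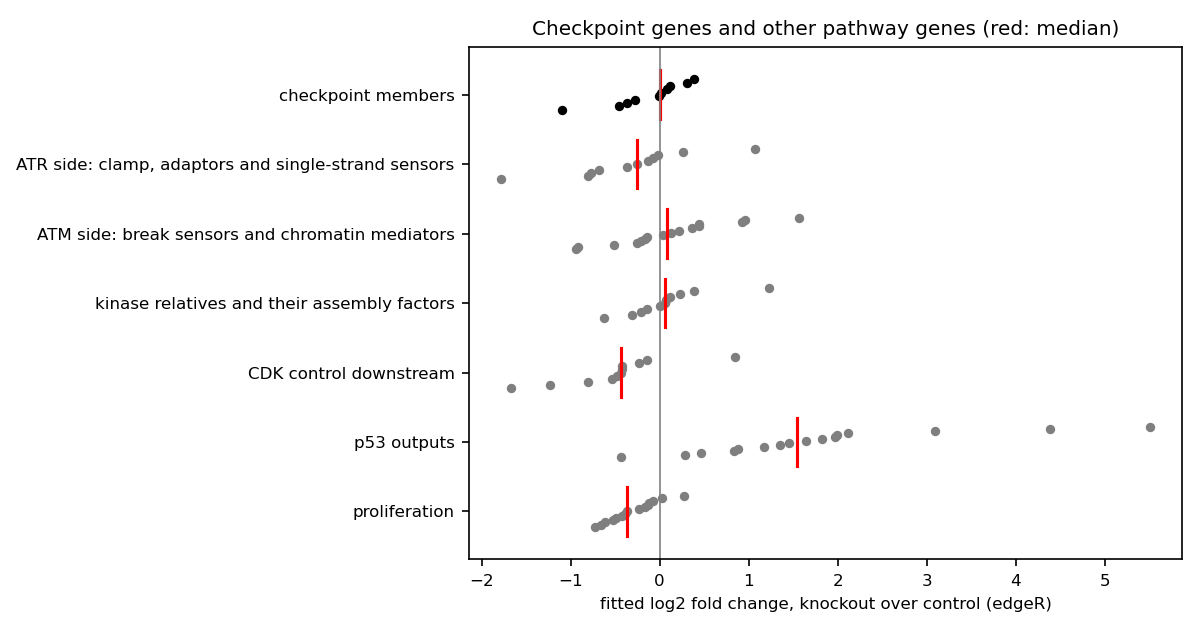
Fitted log2 fold change (edgeR, knockout over control) on the x axis for the 10 checkpoint genes (black) and the tested genes of each pathway list (grey), 1 point per gene; red lines are medians. The checkpoint genes centre on 0.00, the p53 outputs on 1.55 and the genes of CDK control on -0.44.

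The genes with the most similar pattern to Atm, Atr and Chek1 were found by the root mean square difference between log2 CPM profiles, each centred on its own mean, over the 6 samples and 6720 genes with a mean of at least 10 CPM. For Atm they were Vegfb, Rfwd3 and Wdr48, at 0.07, 0.08 and 0.08, where the Atm profile itself departed from its mean by 0.28. For Atr they were Slc1a5, Mef2c and Cstf2, at 0.07, 0.10 and 0.10 (0.31 for Atr itself). For Chek1 they were Rev1, Zfp507 and Rpl15, at 0.20, 0.24 and 0.27 (1.04 for Chek1 itself); Rpl15, a ribosomal protein gene with processed copies, is uncertain because reads can be shared with them. Rev1, a translesion DNA polymerase gene, had 11.6, 15.4 and 15.3 CPM in controls and 6.24, 14.1 and 2.54 CPM in knockouts, and so shared with Chek1 the low levels of knockouts 1 and 3. The samples compared share their libraries and scaling, and these likenesses are a description of 6 libraries.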

How the data were processed

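Total RNA of sorted HSCs was selected for poly(A) RNA and made into 6 libraries, per the labels' protocols. The authors deposited 1 list of raw counts per gene symbol for each library. The submitters' processing notes name CASAVA 1.8.4, TopHat2, Picard 1.126, HTSeq 0.6.0, DESeq 3.0, bedtools 2.17.0 and mm10, without roles; annotation and strand setting are not given in the sources used here. Rows with no gene held 41.0% to 51.0% of all reads per library and were left out.

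Genes were kept with filterByExpr (edgeR 4.0.16, R 4.3.3), scaled by TMM and tested by the quasi-likelihood F test, litter not being in the model, and p-values were adjusted by Benjamini-Hochberg over 13646 genes, with a threshold of 0.05. Each SE was derived from the fold change and its F statistic. Log2 CPM used a prior count of 2. DESeq2 1.42.0 and limma 3.58.1 (voom) were alternatives, besides litter as a block, other scalings and filters, and each sample left out. Positions and exon lengths are from GENCODE M21 (GRCm38, the build of mm10).

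The labels pair samples by litter; deviations from genotype means correlated at -0.0224, -0.0752 and 0.00336 within litters 1 to 3. Members and lists were chosen with earlier results of these data known. Named genes are the 10 members, Dpy30, any gene past the threshold and the 4 of smallest p in each list, overlapping genes or those starting within 1000 bases, and the 3 most alike to Atm, Atr and Chek1 (no predicted genes or RIKEN clones). Whether PCR copies were removed is not given in the sources used here, and the Poisson interval covers counting error only. Older symbols were matched through RefSeq (Emr1 for Adgre1).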

Additional observations from a re-analysis of the deposited data

How the results depend on the processing

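The count of genes past the threshold was 0 in edgeR as reported and 138 under DESeq2, 277 under DESeq2 with litter as a replicate block, 1 without a filter on low counts and 1 with at least 10 counts in every sample, which was Cdkn1a in both; the cause was not tested. With the replicate block in edgeR, a pairing by litter taken from the labels, it was 0, and the block changed no other call of a checkpoint gene. The count was 0 to 0 when each sample was left out in turn. The number of checkpoint genes past the threshold was 0 in every setting run, and their median log2 fold change ranged from -0.13 to 0.21 over the settings with all samples. Scaling by library size only moved the median of all genes by 0.21 (log2), limma-voom by -0.16, the replicate block by -0.14 (DESeq2 with the block by -0.12) and upper-quartile scaling by -0.12, so fold changes under them are relative to that shift. The medians of the ATR side (0.11 by library size only), of the ATM side (-0.04 with upper-quartile scaling) and of the kinase relatives (-0.07 with upper-quartile scaling) turned in some settings, and those of CDK control, proliferation and the p53 outputs did not turn in any setting run. Chek1, Topbp1, Chek2, Atm and Mdc1 kept their direction in every setting run, Chek1 from -0.65 to -1.80, Chek2 from -0.02 to -1.09 and Atm from 0.10 to 0.48 when samples were left out.

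Other directions turned, all at adjusted p far above the threshold. Wee1 was at -0.077 with the replicate block, -0.06 in DESeq2 with the block, -0.069 in limma-voom, -0.086 with upper-quartile scaling, and from -0.31 to 0.30 with samples left out. Rad17 was at 0.007 in DESeq2 and with DESeq2-style size factors, 0.19 by library size only, and from -0.68 to 0.25 with samples left out. Trp53bp1 was at -0.016 with upper-quartile scaling, and from -0.28 to 0.35 with samples left out. Atr ranged from -0.041 to 0.33 and Atrip from -0.69 to 0.013 with samples left out. Of genes beside the members, Npat was at 0.067 by library size only (-0.57 to 0.022 with samples left out) and Tubgcp4 ranged from -0.29 to 0.66. 1300017J02Rik was at -2.11 with the replicate block, -2.12 in DESeq2 with the block, -2.33 in limma-voom, -0.21 with upper-quartile scaling and -0.006 without mitochondrial genes and the 10 most counted features (-3.07 to 0.59 with samples left out). Gm16794 was at -0.22 with the block, -0.34 in DESeq2 with the block and -0.43 in limma-voom (-1.12 to 2.28). The per-length levels under the longest transcript were added after the data were seen.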

Other observations

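The near-identity of some control values was unusual. The SD of Wee1 over the 3 controls was 0.0792 CPM around a mean of 15.7 CPM, and that of Chek1 was 0.787 CPM around 41.5 CPM, where counting error alone would give an SD of about 0.662 and 1.08 CPM. Both were therefore below the spread of the counting itself. Among the 7151 tested genes in the range of level of the checkpoint genes, 1.5% had a control SD below their counting SD, and 0.461% had such a knockout SD, which none of the 10 checkpoint genes had. With 3 samples, an SD is itself imprecise, and no test was made of these values.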
